A study of Mus musculus with 8 samples.

Results

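The mouse defensin genes were examined through the nuclear compartments in which they lay in mouse embryonic stem cells (mESCs). They comprised the autosomal protein-coding genes whose symbol is Defa or Defb followed by a digit in GENCODE vM21, 64 of the 20807 autosomal protein-coding genes: 22 α-defensin (Defa) and 42 β-defensin (Defb) genes. Their starts fell in 22 of the 23972 bins of 100 kb that carried a compartment score in all 8 Hi-C libraries. Hi-C counts contacts between pairs of loci in fixed nuclei, and the compartment score is the first eigenvector of each chromosome's contact map. A score above 0 marks the A compartment of active chromatin and a score below 0 the B compartment of inactive chromatin. Scores are eigenvector entries without a unit, and each chromosome averages 0 in each library.

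Defensins are small cationic peptides held by disulfide bonds that damage the membranes of microbes. In the mouse, α-defensins are made by Paneth cells at the base of the small-intestinal crypts, where the metalloprotease MMP7 cuts the precursors to active peptides. β-defensins are made by epithelia of the airway, skin, kidney and gut and, for many family members, by the epididymis, and some of them attract immune cells through the receptor CCR6. Both families lie in clusters of tandem copies, and mESCs are not a cell type known for making either. RNA levels are not analysed here.

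All 8 groups were mESCs grown in the same serum-reduced medium with LIF, and each was represented by 1 library. The Setdb1 line (#33-6 Setdb1 conditional KO mES) gave Setdb1 WT without added agent, Setdb1 WT + UNC with UNC0642, an inhibitor of the H3K9 methyltransferases G9a and GLP, at 2 µM for 3 days, Setdb1 KO with 4-hydroxytamoxifen (4-OHT) at 800 nM for 5 days, which deletes the methyltransferase gene Setdb1, and Setdb1 KO + UNC with 4-OHT for 2 days followed by UNC0642 for 3 days. The Suv39h line gave Suv39h WT (clone ADF1-26) and Suv39h DKO (clone ADF157, lacking the methyltransferases SUV39H1 and SUV39H2), each without and with the same UNC0642 treatment. Genotype cannot be told apart from clone in the Suv39h line, nor line from origin and culture between the 2 lines. In the Setdb1 line, loss of SETDB1 cannot be told apart from exposure to 4-OHT, which only the Setdb1 KO libraries received, for unequal times. The study's methods mention repeated Hi-C experiments without saying what each score table was made from. The score tables hold no read counts. The read totals of the Hi-C libraries and the comparison of repeats that the study gives were not used here. Errors below come from the spread between the 8 libraries. Across all bins the 28 pairs of libraries correlated with r between 0.958 and 0.990.

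The genes formed 4 clusters, since no pair of neighbours on a chromosome lay more than 2 Mb apart. Chromosome 8 held 46 genes in 16 bins between 18900001 and 22000000 (mm10). Chromosome 2 held 11 Defb genes in 3 bins between 152400001 and 152700000. Chromosome 14 held 5 Defb genes in 2 bins between 62900001 and 63100000, and chromosome 1 held Defb18 and Defb41 in 1 bin between 18200001 and 18300000. All 22 Defa genes were on chromosome 8, where 7 adjacent bins held Defa genes alone, 1 bin held Defa24 with Defb1, and 8 bins held Defb genes alone. A bin is named below after the first of its genes along the chromosome.

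The α-defensin promoters that could be compared resembled one another more than the β-defensin promoters did. RefSeq promoter windows (GRCm38.p6) were found for 41 of the 64 genes, 12 Defa and 29 Defb. The last 150 bases before the RefSeq start are printed 5′ to 3′ for 4 Defa genes from bins on which the comparison of lines turned, and for 3 Defb genes from 3 of the clusters. Capitals mark TATAAA on the gene's strand, the letters of a TATA box, and ATCAAAG or its complement CTTTGAT, a form of the element bound by TCF/LEF factors of the Wnt pathway.
Defa30: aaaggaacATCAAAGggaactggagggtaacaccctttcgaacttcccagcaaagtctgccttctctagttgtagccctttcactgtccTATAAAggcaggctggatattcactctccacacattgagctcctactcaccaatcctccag
Defa22: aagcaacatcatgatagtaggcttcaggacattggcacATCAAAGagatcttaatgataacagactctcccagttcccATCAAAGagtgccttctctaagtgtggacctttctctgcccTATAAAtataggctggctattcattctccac
Defa36: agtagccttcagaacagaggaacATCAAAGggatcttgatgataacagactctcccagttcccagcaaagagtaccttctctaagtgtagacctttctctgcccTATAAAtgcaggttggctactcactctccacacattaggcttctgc
Defa20: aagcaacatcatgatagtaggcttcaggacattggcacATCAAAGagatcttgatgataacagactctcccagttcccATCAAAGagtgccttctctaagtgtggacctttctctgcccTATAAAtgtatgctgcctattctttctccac
Defb39: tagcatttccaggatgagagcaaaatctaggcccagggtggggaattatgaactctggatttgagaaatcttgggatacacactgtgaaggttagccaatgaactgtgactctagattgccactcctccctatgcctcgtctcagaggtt
Defb36: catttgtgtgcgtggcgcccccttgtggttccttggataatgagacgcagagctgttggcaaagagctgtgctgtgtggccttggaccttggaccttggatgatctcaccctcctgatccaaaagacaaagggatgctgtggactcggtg
Defb30: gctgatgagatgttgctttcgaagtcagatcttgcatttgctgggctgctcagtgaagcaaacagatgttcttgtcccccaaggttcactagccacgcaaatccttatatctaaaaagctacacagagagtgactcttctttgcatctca
These windows lie at chr8:21134500-21134649, chr8:21162127-21162276, chr8:21427278-21427427 and chr8:21509108-21509257 on the plus strand for the 4 Defa genes. They lie at chr8:19064922-19065071 on the minus strand, chr2:152604177-152604326 on the plus strand and chr14:63037847-63037996 on the minus strand for the Defb genes.

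Within the 250 bases before the start, ATCAAAG or CTTTGAT was present in 12 of 12 Defa promoters, in 0 of 29 Defb promoters and in 3.23% of the promoters of 27025 genes, 1 window a gene. TATAAA was present in 11 of 12 Defa promoters, Defa28 being the exception. It was present in 3 of 29 Defb promoters, those of Defb23, Defb15 and Defb48, and in 8.12% of all genes' promoters. The letter matches are a description and show no binding. The 150 bases of Defa22 and Defa20 shared 96.7% of positions without a shift, and those of Defa36 and Defa22 shared 88.9% after a shift of 15 bases. Over all 66 pairs of Defa promoters the median identity, sliding 1 window along the other by up to 40 bases, was 86.5%, with a lowest value of 36%. Over 406 pairs of Defb promoters it was 34.9%.

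The clusters occupied different compartments. The chromosome 2 and chromosome 14 clusters lay in the A compartment in every library, the chromosome 8 cluster lay mostly in B, and the chromosome 1 bin sat at the boundary. Of the 22 defensin bins, 6 were in A in all 8 libraries, 13 were in B in all 8 and 3 changed sign between libraries. Over all 23972 bins the shares were 38.9%, 48.0% and 13.0%, and over the 10037 bins with a protein-coding start they were 64.4%, 24.1% and 11.5%. Because the implied chromosome mean of the scores is unknown in sign, the number of B bins was 8 with that mean added back and 16 with it subtracted again.

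**Figure D1:**
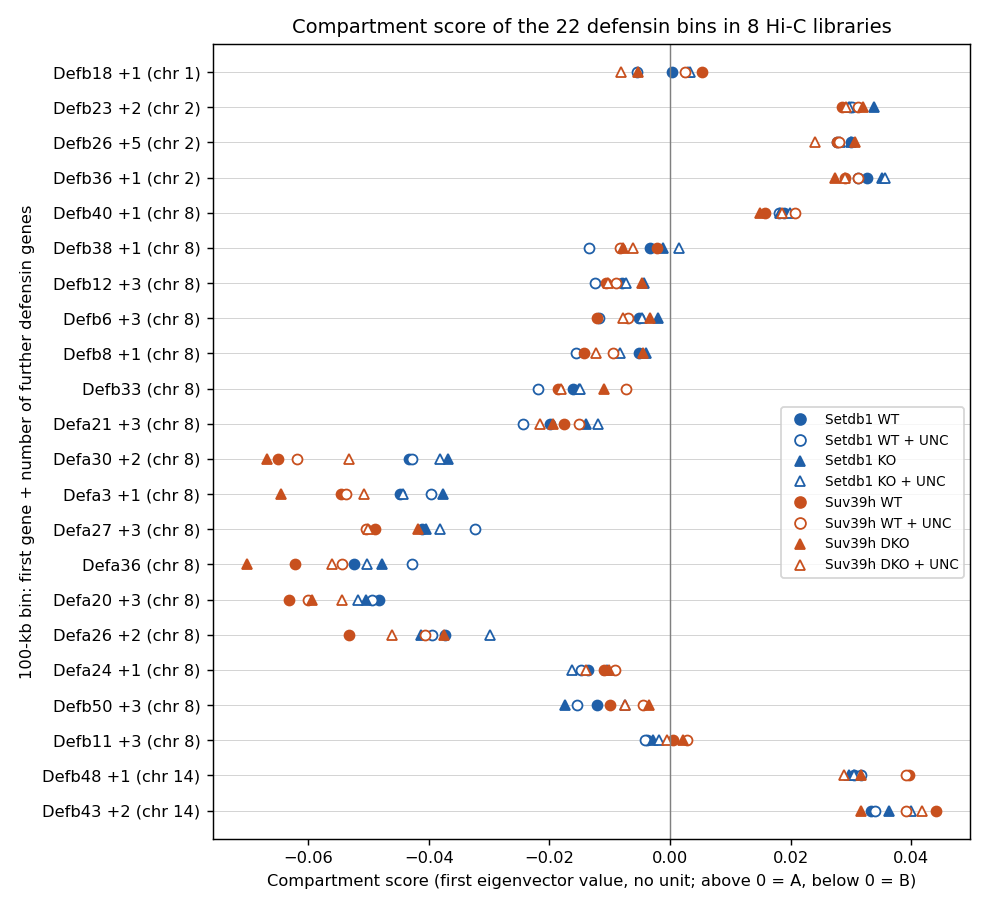
Compartment score (x axis, no unit) of the 22 defensin bins (y axis) in the 8 libraries, with blue for the Setdb1 line, orange for the Suv39h line, circles for wild type, triangles for knockouts and open symbols for UNC0642. The bins of chromosomes 2 and 14 sit to the right of 0 in every library, and 6 of the 7 bins of Defa genes alone sit at -0.0298 or lower in every library.

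On chromosome 2 the 11 genes are β-defensins of the group studied mainly in the male reproductive tract. Library scores are given here and below in the order wild type, wild type with UNC0642, knockout and knockout with UNC0642, first for the Setdb1 line and then for the Suv39h line. The Defb36 bin, with Defb36 and Defb25, had the highest mean of the cluster and the widest spread, with scores of 0.0326, 0.0312, 0.0351, 0.0357, 0.0290, 0.0312, 0.0274 and 0.0291. The Defb26 bin, which also holds Defb28, Defb29, Defb21, Defb19 and Defb45, had the lowest mean, with 0.0301, 0.0276, 0.0299, 0.0283, 0.0277, 0.0281, 0.0306 and 0.0240. The libraries of both lines overlapped in each of these bins. The Defb23 bin lay between 0.0285 and 0.0339, and its range of 0.00534 was wider than that of 6.27% of all bins. In rank, the percentiles of the 3 bins on chromosome 2 ran from 80.3 to 94.3 over the libraries.

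The 5 Defb genes of chromosome 14 had a similar standing on their own chromosome. The Defb43 bin, with Defb43, Defb42 and Defb30, scored 0.0333, 0.0340, 0.0364, 0.0400, 0.0441, 0.0391, 0.0316 and 0.0417, the highest mean and the widest spread of the cluster. The Defb48 bin, with Defb48 and Defb47, scored 0.0305, 0.0316, 0.0296, 0.0306, 0.0397, 0.0392, 0.0317 and 0.0289. In both bins Suv39h WT had the highest score, and the libraries of the 2 lines overlapped. Their percentiles on chromosome 14 ran from 78.1 to 93.1.

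The chromosome 1 bin holds Defb18 and Defb41, the latter an epididymal β-defensin. Its scores were 0.000364, -0.00538, 0.00298, 0.00334, 0.00532, 0.00246, -0.00533 and -0.00813. It was in A in 5 libraries and in B in 3, of which 2 were the Suv39h DKO libraries, and its percentile on chromosome 1 ran from 41.2 to 61.3. With the implied mean subtracted again all 5 positive scores turned negative, to -0.00492 in Setdb1 WT, -0.00214 in Setdb1 KO, -0.00203 in Setdb1 KO + UNC, -0.000426 in Suv39h WT and -0.00293 in Suv39h WT + UNC. The bin was then in B in all 8 libraries, whereas with the mean added it stayed in A in 5, so its sign is not settled.

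On chromosome 8 the scores followed position and family. The Defb40 bin at the proximal edge, with Defb40 and Defb37, was the only one of the 16 in A in all libraries, with 0.0189, 0.0180, 0.0182, 0.0198, 0.0157, 0.0207, 0.0150 and 0.0185. The next 4 Defb bins held 12 genes, among them Defb4 and Defb14, inducible epithelial β-defensins, and Defb3. Their scores lay between -0.0156 and 0.00147, and the single positive value was that of the Defb38 bin in Setdb1 KO + UNC. The bin of Defb33 alone lay between -0.0219 and -0.00733. At the distal edge, the bin of Defa24 and Defb1, a constitutively expressed epithelial β-defensin, lay between -0.0162 and -0.00915, the Defb50 bin between -0.0175 and -0.00346, and the Defb11 bin between -0.00418 and 0.00277.

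The 7 bins of Defa genes alone held 21 genes for Paneth cell peptides. The first of them, the Defa21 bin, lay between -0.0243 and -0.0119, close to its Defb neighbours. The Defa20 bin, with Defa20, Defa32, Defa37 and Defa28, had the lowest mean of the 22 defensin bins, and its scores were -0.0483, -0.0493, -0.0505, -0.0517, -0.0632, -0.0600, -0.0594 and -0.0545. It ranked between the 3rd and the 6th lowest of the 1262 bins of chromosome 8 in every library. The Defa36 bin, holding Defa36 alone, ranked between the lowest and the 6th lowest, and the Defa3 bin, with Defa3 and Defa5, between the 5th and the 11th lowest. The Defa30 bin ranked between the lowest and the 16th lowest. The other Defa bins were less steady: the Defa27 bin ranked between 6 and 119 from the bottom, with 119 in Setdb1 WT + UNC, the Defa26 bin between 7 and 187, with 187 in Setdb1 KO + UNC, and the Defa21 bin between 345 and 537. Among the 15 bins of chromosome 8 with the lowest mean score, 6 were bins of Defa genes and 2 were bins between the Defb8 and Defb33 bins that hold no defensin start. One of these, chr8:19800001-19900000, had the lowest mean of the chromosome, -0.0551, and the other, chr8:20600001-20700000, had a mean of -0.0488.

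Set against the 8 bins of Defb genes alone, the 7 bins of Defa genes alone had a lower mean in every library. The Defa means were -0.0410, -0.0386, -0.0383, -0.0377, -0.0521, -0.0480, -0.0513 and -0.0475. The Defb means were -0.00431, -0.00958, -0.00357, -0.00288, -0.00645, -0.00275, -0.00217 and -0.00550. The difference of Defa minus Defb ranged from -0.0492 in Suv39h DKO to -0.0291 in Setdb1 WT + UNC. The bins are neighbours on 1 chromosome and were not tested as replicates.

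**Figure D2:**
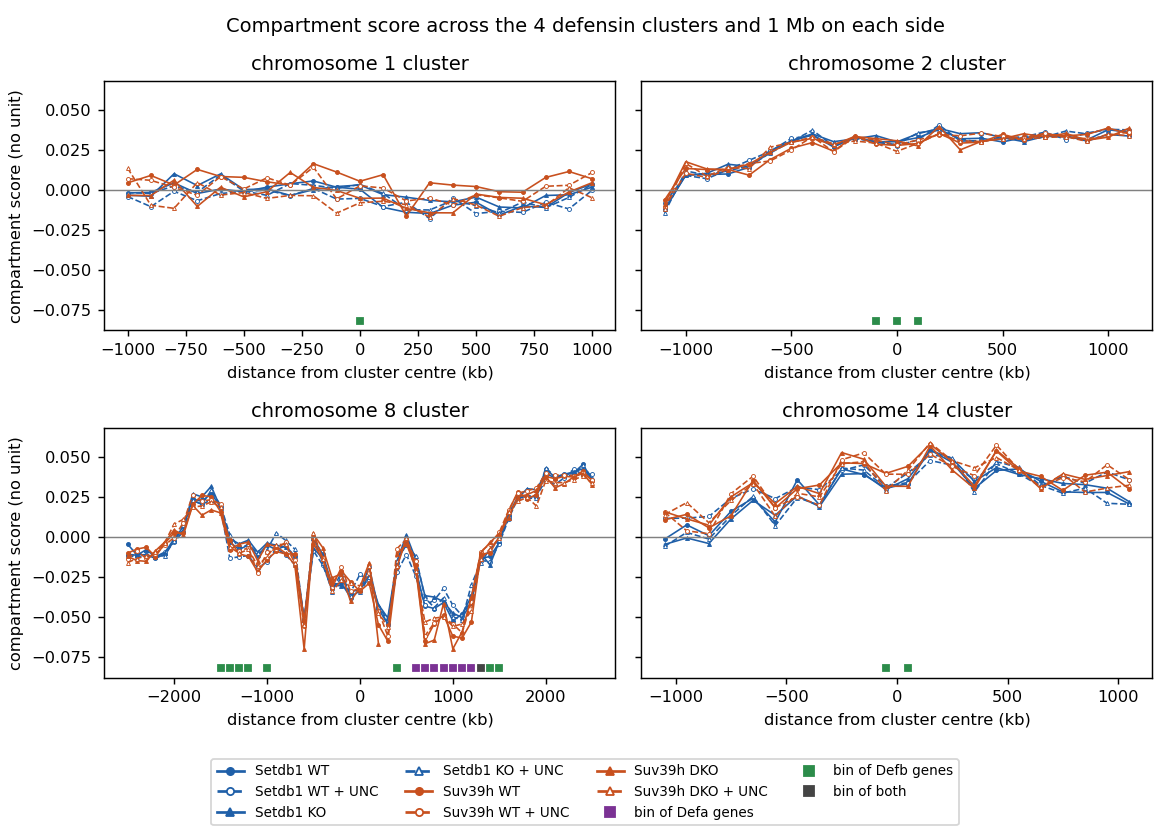
Compartment score (y axis, no unit) against distance from the centre of each cluster in kb (x axis), 10 bins beyond the outermost members on each side, 1 line a library, with squares at the foot marking the defensin bins by family. The chromosome 2 and 14 clusters sit on positive plateaus, the chromosome 8 cluster fills a negative stretch between positive edges, and the chromosome 1 bin lies among values near 0.

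The bins around each cluster were read in the same way. On chromosome 2 the 10 bins before the cluster averaged between 0.0169 and 0.0197 and the 10 after it between 0.0324 and 0.0345, and the nearest sign change was 900 kb away in all 8 libraries. On chromosome 14 the averages were 0.0161 to 0.0274 before and 0.0351 to 0.0417 after, with the nearest sign change 700 to 3900 kb away. On chromosome 8 the 10 bins before the cluster averaged between 0.000131 and 0.00353, with 4 to 5 of them in A. The 10 bins after it averaged between 0.0293 and 0.0334 and were all in A in every library, whereas the members averaged between -0.0267 and -0.0190, and a sign change lay at the edge of a member bin in every library. On chromosome 1 both sides averaged between -0.0104 and 0.00804.

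Sequence features differed between the same groups. GC content was 39.6% to 40.2% in the 7 Defa bins, 44.8% to 48.4% on chromosome 2, 43.9% to 45.1% on chromosome 14 and 36.5% on chromosome 1, beside a median of 41.4% over all bins. As a measure of duplication, words of 100 bases were sampled every 50 bases, and the percentage with a further copy on the same chromosome, on either strand, was counted. It was 41.9% to 78.2% in the Defa bins and 41.5% in the Defb33 bin, in which 12.2% of bases are unknown. It was between 0.200% and 13.0% in the other 14 defensin bins, and its median over the bins of chromosomes 1, 2, 8 and 14 was 1.80%.

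Low scores were also found in bins of chromosome 8 that are rich in duplicated sequence and hold no defensin start. There were 13 such bins with at least 40% repeated words, of which 9 lay within the cluster, between the Defb8 and Defb33 bins. All 9 had a mean score below 0, from -0.0551 to -0.0132 with a median of -0.0310. Of the 4 outside the cluster, 3 were below 0, and the means ran from -0.0438 to 0.0199. The 8 defensin bins past 40% had a median of -0.0458, and the 1233 other bins below 40% had a median of -0.00310, of which 52.7% were below 0. On chromosome 14, 79 of 80 bins with at least 40% repeated words were below 0. Reads from near-identical copies are removed by a filter on mapping quality, and the part of this in the low scores of the α-defensin array was not tested.

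**Figure D3:**
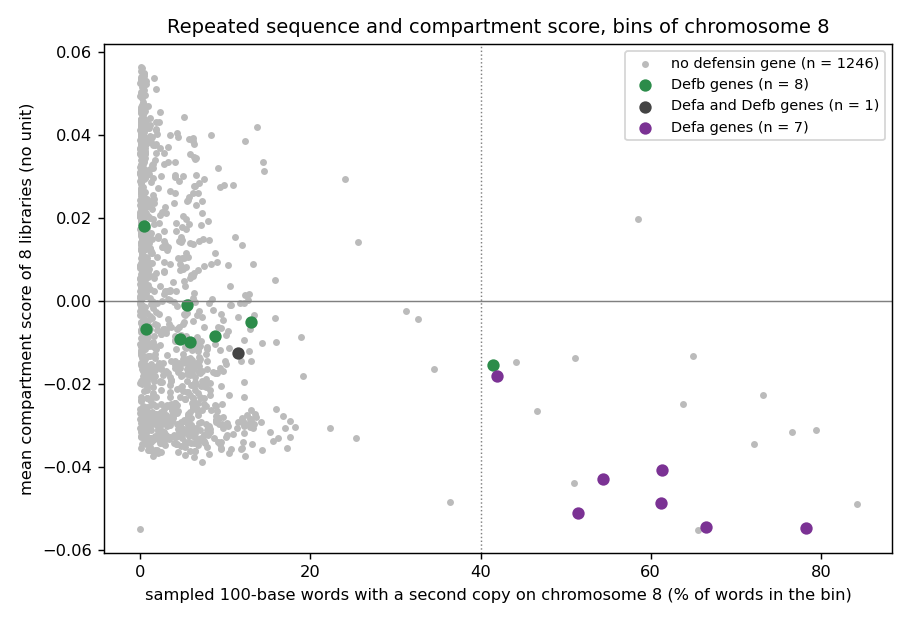
Mean compartment score of the 8 libraries (y axis, no unit) against the percentage of sampled 100-base words with a second copy on chromosome 8 (x axis), for the bins of chromosome 8, with the dotted line at 40%. The Defa bins lie past 40% with the Defb33 bin, and the other Defb bins lie at 13.0% or below.

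The comparison of the 2 lines asked whether the score of a defensin bin differed between the libraries of one line and those of the other. Each line mixes wild-type and knockout libraries, and its knockouts lack different H3K9 methyltransferases from those of the other line. The 4 libraries of a line are not repeats of a single condition. The p-values therefore measure the spread between libraries and not between lines. 4 α-defensin bins were lower in the Suv39h line than in the Setdb1 line by limma's moderated test on line with UNC0642 as covariate, 4 libraries against 4, and no defensin bin was higher. These were the Defa30, Defa3, Defa36 and Defa20 bins, with 10 genes in all, 4 of 22 bins, where 4.63% of all 23972 bins were called. None of the 15 bins that hold a Defb gene was called. The count was 1 after quantile normalization, where 871 of all bins were called, beside 1110 in the main fit. With the untreated libraries alone it was 4, where 1077 of all bins were called. With the UNC0642 libraries alone it was 0, where 2 of all bins were called. Without Setdb1 WT, Setdb1 KO or Suv39h WT + UNC the count was 1, where 217, 177 and 579 of all bins were called. Without Suv39h WT or Suv39h DKO it was 2, where 385 and 271 of all bins were called.

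The Defa30 bin, with Defa30, Defa22 and Defa31, scored -0.0433, -0.0427, -0.0367, -0.0381, -0.0649, -0.0619, -0.0668 and -0.0532. Every Suv39h library was below every Setdb1 library, and the difference of the line means was -0.0215 ± 0.00278 (SE, limma adjusted p = 0.00334). The Defa3 bin scored -0.0448, -0.0396, -0.0377, -0.0442, -0.0545, -0.0538, -0.0646 and -0.0508, with no overlap and a difference of -0.0143 ± 0.00289 (limma adjusted p = 0.0242).

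The Defa36 bin scored -0.0524, -0.0427, -0.0477, -0.0502, -0.0621, -0.0545, -0.0700 and -0.0560. The lines did not overlap, and the difference was -0.0124 ± 0.00270 (limma adjusted p = 0.0314). In the Defa20 bin, whose scores are given above, the lines did not overlap either, and the difference was -0.00932 ± 0.00218 (limma adjusted p = 0.0392).

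The other 3 Defa bins did not pass. The Defa27 bin, with Defa27, Defa29, Defa2 and Defa33, had no overlap between lines and a difference of -0.00974 ± 0.00269 (limma adjusted p = 0.0633). The Defa26 bin differed by -0.00742 and the Defa21 bin by -0.000837, with overlapping lines. All 7 differences were negative after scaling, quantile normalization, removal of GC content and either centring. For the 4 called bins they ranged from -0.0219 to -0.00170. After quantile normalization they were -0.0154 for Defa30, -0.00891 for Defa3, -0.00529 for Defa36 and -0.00170 for Defa20. Ranks were not among these settings. In the Setdb1 line Defa30 ranked 8, 7, 16 and 11 from the bottom, and in the Suv39h line 1, 1, 4 and 4. Defa20 ranked 4, 3, 3 and 3, then 3, 3, 6 and 3. Defa3 ranked 7, 9, 11 and 6, then 6, 6, 5 and 5. Defa36 ranked 1, 6, 4 and 4, then 4, 5, 2 and 1. In the Defb11 bin the lines did not overlap, with Setdb1 libraries from -0.00418 to -0.00177 and Suv39h libraries from -0.000536 to 0.00277, but it was not called (limma adjusted p = 0.192). The lines were apart in 6 of the 22 defensin bins and in 13.1% of all bins.

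Calls between the lines were also counted in other bins rich in duplicated sequence. Of the 125 other bins of chromosomes 1, 2, 8 and 14 with at least 40% repeated words, 37 were called between the lines, 29.6%, of which 28 were lower in the Suv39h line. Of the 6023 other bins below 40%, 185 were called, 3.07%. Chromosome 14 held 28 of the 37 calls, among its 80 repeat-rich bins, and 24 of the 28 lower ones, and 9.59% of its other bins below 40% were called as well. On chromosome 8, 0 of the 9 other repeat-rich bins within the cluster and 1 of the 4 outside it were called, and on chromosome 1 the 5 called of 6 were all higher. The part of duplicated sequence, and of copy number in these lines, in the α-defensin difference was not tested. All 4 called bins hold at least 51.4% repeated words. As within-chromosome percentile rank none of the 22 bins was called, and the 4 bins called on score ranked at the 16th lowest or lower in all 8 libraries.

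**Figure D4:**
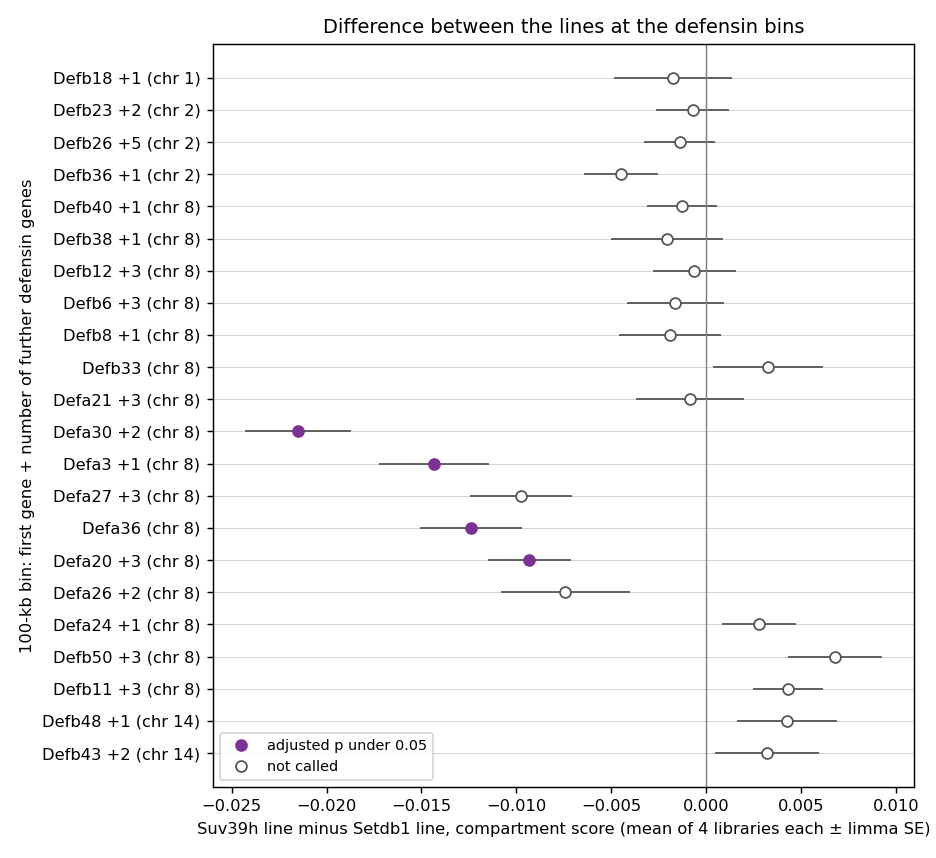
Suv39h line minus Setdb1 line in compartment score (x axis, no unit; points are differences of the means of 4 libraries, bars the limma SE) for the 22 defensin bins (y axis), filled where the adjusted p was under 0.05. The 4 filled points, from -0.0215 to -0.00932, are all bins of Defa genes, and the Defb bins lie between -0.00447 and 0.00680.

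Loss or inhibition of the H3K9 methyltransferases gave no called change at any defensin bin. SETDB1 and SUV39H1/2 are best known for H3K9me3, and G9a and GLP for H3K9me2. In limma with 4 backgrounds as a block, 0 of 22 defensin bins passed for UNC0642, and 0% of all bins did. 1 defensin bin, that of Defa36, had an unadjusted p below 0.05. For SETDB1 loss, 0 of 22 passed and 0% of all bins, with 2 at an unadjusted p below 0.05, the Defb38 and Defa21 bins. For SUV39H1/2 loss, 0 of 22 passed and 0% of all bins, with 2 at an unadjusted p below 0.05, the Defb18 and Defb48 bins. Over all bins 1187, 2182 and 2302 had an unadjusted p below 0.05. For the term that asks whether UNC0642 acts differently in the 2 lines, 0 of 22 passed and 0% of all bins, with 1 at an unadjusted p below 0.05, the Defa27 bin, beside 880 over all bins.

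For SUV39H1/2 loss the lowest adjusted p was that of the Defb18 bin of chromosome 1. Its score differed by -0.0107 between Suv39h DKO and Suv39h WT and by -0.0106 between the same genotypes under UNC0642, and the fitted difference was -0.0106 ± 0.00274 (SE, limma adjusted p = 0.358). It was the only defensin bin to change by 0.01 the same way in both pairs of a genotype comparison or in 3 of the 4 UNC0642 pairs. Of all 23972 bins, 84 did so upward and 122 downward for SUV39H1/2 loss. The counts were 136 and 31 for SETDB1 loss, and 10 and 13 for UNC0642. The Defb48 bin of chromosome 14 differed by -0.00917 ± 0.00266 (limma adjusted p = 0.386), with both DKO libraries, 0.0317 and 0.0289, below both wild-type libraries of that line.

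For SETDB1 loss the fitted difference was positive in 18 of 22 defensin bins, with a median of 0.00225, beside a median of -0.000293 and 46.7% positive over all bins. The change was positive in both pairs of libraries in 11 of the 22 bins and negative in both in 2. Over all 23972 bins these counts were 5999 and 7044. Many of the 22 bins are neighbours, and the split of signs was not tested. The Defa21 bin differed by 0.00920 ± 0.00287 (limma adjusted p = 0.388), its Setdb1 KO libraries at -0.0140 and -0.0119 lying above its Setdb1 WT libraries at -0.0199 and -0.0243. The Defb38 bin differed by 0.00849 ± 0.00349 (limma adjusted p = 0.510), with Setdb1 WT + UNC at -0.0134 far below the other 3. Without the library Setdb1 WT + UNC, 0 defensin bins had an unadjusted p below 0.05 for SETDB1 loss. For SUV39H1/2 loss, 9 fitted differences were positive and 13 negative. For UNC0642, 11 fitted differences were positive and 11 negative, and the Defa36 bin had the lowest unadjusted p, with a difference of 0.00722 ± 0.00263 (limma adjusted p = 0.957).

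Each perturbed library was also set against its control without a test, counting bins that changed by at least 0.01 either way, beside the share of all bins that did. The contrasts of a line share their control libraries. In Setdb1 WT + UNC against Setdb1 WT, 2 of 22 bins changed so much (8.13% of all bins), the Defb38 bin by -0.0101 and the Defb8 bin by -0.0105. Setdb1 KO against Setdb1 WT had 0 of 22 (2.28% of all bins), and Setdb1 KO + UNC against Setdb1 WT also had 0 (2.64%). In Setdb1 KO + UNC against Setdb1 WT + UNC, 2 bins did (12.9%), the Defb38 bin by 0.0149 and the Defa21 bin by 0.0125. In Setdb1 KO + UNC against Setdb1 KO, 1 bin did (1.69%), the Defa26 bin by 0.0115.

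In the Suv39h line, Suv39h WT + UNC against Suv39h WT had 2 such bins (4.79% of all bins), the Defb33 bin at 0.0113 and the Defa26 bin at 0.0126. Suv39h DKO against Suv39h WT had 4 (7.38%), with the Defb18 bin at -0.0107, the Defa3 bin at -0.0100, the Defb43 bin at -0.0125 and the Defa26 bin at 0.0158. Suv39h DKO + UNC against Suv39h WT had 3 (9.8%), namely Defb18 at -0.0135, Defb48 at -0.0108 and Defa30 at 0.0117. Suv39h DKO + UNC against Suv39h WT + UNC had 3 (6.84%), which were Defb18 at -0.0106, Defb33 at -0.0107 and Defb48 at -0.0103.

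Suv39h DKO + UNC against Suv39h DKO had 4 (6.73%), all upward, with Defa36 at 0.0141, Defa3 at 0.0137, Defa30 at 0.0136 and Defb43 at 0.0101. The 2 wild types without UNC0642 differed in 4 bins (12% of all bins), Suv39h WT minus Setdb1 WT being -0.0217 for Defa30, -0.0160 for Defa26, -0.0149 for Defa20 and 0.0109 for Defb43. Counts of 0 to 4 of 22 bins amount to 0% to 18.2%. Some of the 22 bins are neighbours, no contrast was tested, and nothing about the defensins is read from these shares.

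**Figure D5:**
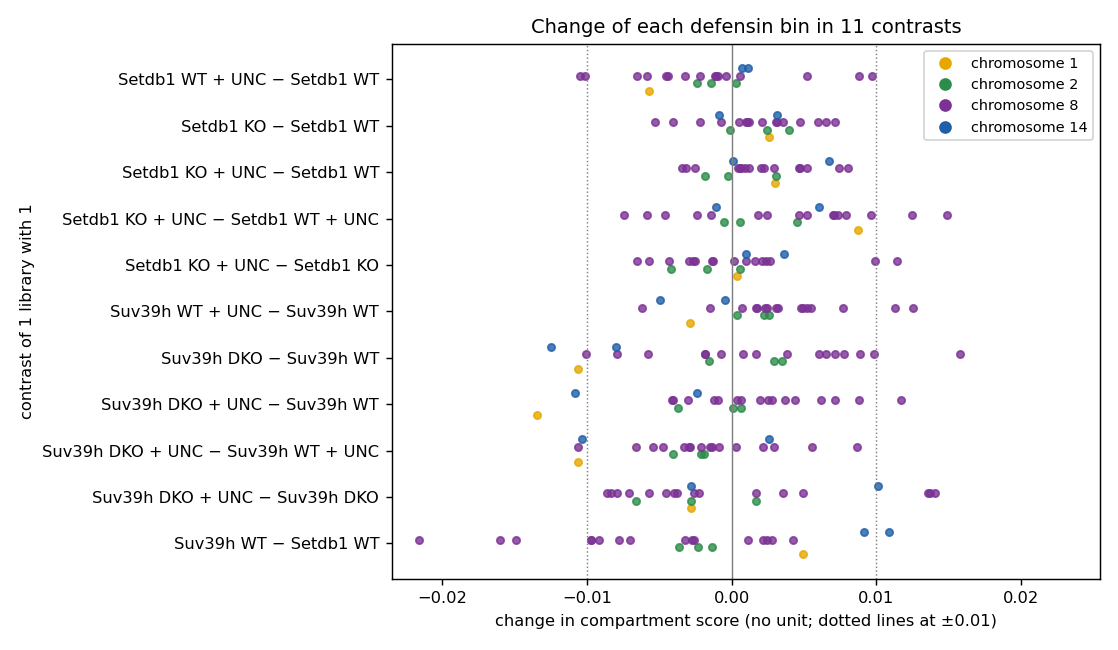
Change in compartment score (x axis, no unit) of each of the 22 defensin bins in 11 contrasts of 1 library with 1 (y axis), coloured by chromosome, with dotted lines at a change of 0.01 either way. The 3 bins of chromosome 2 stay within the dotted lines in all 11 contrasts, and the widest change is -0.0217 in Suv39h WT minus Setdb1 WT.

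Beyond the defensins, 26 other genes of antimicrobial defence were looked up, of which 25 were found, in 21 bins. In all 8 libraries 16 of the 25 genes, some of which share a bin, were in A and 8 in B. Of all bins with a protein-coding start, 64.4% were in A and 24.1% in B in all 8. Mmp7, the protease that activates α-defensins, lay at the boundary with scores from -0.0110 to 0.00727. Camp, the cathelicidin peptide gene, lay between 0.0275 and 0.0343, the lysozyme genes Lyz1 and Lyz2 shared a bin between 0.0322 and 0.0398, and Ccr6 lay between 0.0190 and 0.0302. Reg3b, for a Paneth cell and enterocyte lectin, lay in B between -0.0321 and -0.0256, the neighbouring Reg3g lay in B between -0.0336 and -0.0248, and Ang4, for a Paneth cell ribonuclease, lay between -0.0240 and -0.00634. Spag11a and Spag11b, epididymal genes related to β-defensins, share the Defb12 bin of chromosome 8. Of the 21 bins, 0 were called for UNC0642, SETDB1 loss, SUV39H1/2 loss, the lines or the line by UNC0642 term.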

How the data were processed

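Hi-C compartment scores of 8 mESC libraries, 1 per group, were used. Per the methods and labels, the authors digested chromatin with DpnII, aligned reads to mm10 with the 4DN Hi-C pipeline (version 43), kept alignments of mapping quality above 10, and computed with Juicer Tools the first eigenvector of the KR-normalised intrachromosomal matrix in 100-kb bins. The deposited score is that eigenvector value. Within each chromosome and library the scores average 0 and their squares sum to 0.832 to 0.997, which implies a subtracted mean of 0.00165 to 0.0112 whose sign is unknown. The score tables hold no read counts, and the library read totals and comparisons of repeats given by the study were not used here.

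Genes were assigned to the bin of their GENCODE vM21 start, and each bin was counted once. The members and gene lists were chosen with earlier results of these data known. Named bins were, per cluster, those with the highest and lowest mean and the widest range over libraries, those called in a test (at most 5 per cluster and test), and those that changed by 0.01 the same way in both pairs of a genotype comparison or 3 of 4 UNC0642 pairs. Other bins are named where a count of 5 or fewer concerned them or beside a result, chosen after their values were seen, as were the measure of repeated words and the motifs.

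All 23972 bins were tested with limma 3.58.1 in R 4.3.3 and Benjamini-Hochberg adjustment over all bins at 0.05. UNC0642, SETDB1 loss and SUV39H1/2 loss came from 1 fit with background as a block, the lines from a fit on line and UNC0642, and the interaction from the first fit with a line by UNC0642 term. A run of the fits on simulated scores used independent noise of equal size in every bin. The spread of the real scores differed between bins, and nothing is read from that run. The p-values measure the spread between libraries, which share 2 lines. Alternatives were scaling, quantile normalization, centring, GC content, 500-kb means, ranks, moderation and subsets of libraries.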

Additional observations from a re-analysis of the deposited data

How the results depend on the processing

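The defensin bins called for UNC0642, for SETDB1 loss and for SUV39H1/2 loss were 0 under every alternative run, as was the count over the whole genome, so these counts show nothing about stability. Each background pair was left out for UNC0642 only, and the library Setdb1 WT + UNC for SETDB1 loss only. The number of bins called lower in the Suv39h line was 4 after scaling each chromosome, where 1065 of all bins were called. It was also 4 after removal of GC content and with trend and robust moderation, where 1295 and 1021 were called. With background as a block it was 5, where 2070 were called, and with the untreated libraries alone 4, where 1077 were. It was 1 after quantile normalization, where 871 were called, and 1 of 10 bins with 500-kb means, where 746 of 4812 were. As within-chromosome percentile rank it was 0, where 91 were called. With the UNC0642 libraries alone it was 0, where 2 bins of the whole genome were called. Leaving out 1 library gave between 1 and 4. The count was 1 without Setdb1 WT, Setdb1 KO or Suv39h WT + UNC, where 217, 177 and 579 of all bins were called. It was 2 without Suv39h WT or Suv39h DKO, where 385 and 271 were called. It was 3 without Setdb1 KO + UNC or Suv39h DKO + UNC, where 339 and 603 were called. It was 4 without Setdb1 WT + UNC, where 3349 of 23972 bins were called. The cause was not tested.

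The number of defensin bins in A in all libraries was 6 or 7 and that in B ranged from 8 to 16, and with 500-kb means 5 of 10 bins were in A and 4 of 10 in B. The mean changes of the clusters moved by less than limma's prior SD of 0.00305 under all 112 alternatives. Of the cluster means, 64 stayed within that SD, and 64 moved by more, all on adding or subtracting the implied mean. Subtracting it turned the 5 positive chromosome 1 scores negative, to -0.00492 in Setdb1 WT, -0.00214 in Setdb1 KO, -0.00203 in Setdb1 KO + UNC, -0.000426 in Suv39h WT and -0.00293 in Suv39h WT + UNC, and no other cluster mean changed sign. Counts of bins that changed by 0.01 fell to between 0 and 1 at a change of 0.02. The score tables hold no read counts per bin, and the counting error of a change of 0.01 was not estimated here.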
